A study of Mus musculus with 1753 samples.

Results

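Cluster 9 was a set of 59 perimysial fibroblasts among the 1753 single cells sampled from mouse skeletal muscle, named here after its leading genes, *Col22a1* and *Reln*. Its members were all cells to which the deposited labels give cluster number 9, so that membership came from the authors' clustering of these same counts and not from a threshold on any one gene. The 1753 cells comprised 1566 fibroblasts and 187 mural cells, the pericytes and smooth muscle cells of vessel walls. Cluster 9 made up 59 of the 1566 fibroblasts and 59 of the 328 perimysial fibroblasts, and the other 269 perimysial cells were cluster 2. The remaining 1238 fibroblasts (clusters 1, 3, 4, 5, 6, 8 and 10) are called non-perimysial below.

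All cells came from adult male mice of 10 to 20 weeks, and transcripts of each cell were read by Smart-seq2, which sequences full-length cDNA of single cells sorted into plates. The cells carried 1 of 5 strain labels. C57BL6 is the wild-type strain without a reporter. Acta2GFP mice carry a transgene in which the smooth muscle actin promoter drives a green fluorescent protein, PdgfrbGFP mice carry one driven by the Pdgfrb promoter, and Cspg4dsRED mice carry a red reporter driven by the Cspg4 promoter. The label PdgfraGFP - PdgfrbGFP stands for cells pooled from mice with a green reporter knocked into *Pdgfra* and mice of the PdgfrbGFP line, and is called the pool. Cells were taken by their reporter or by antibody to the PDGF receptors and without the endothelial protein CD31, from gastrocnemius with soleus or from the 2 muscles apart. Cluster 9 held 23 cells of Acta2GFP, 12 of C57BL6, 9 of the pool, 13 of PdgfrbGFP and 2 of Cspg4dsRED. Since the labels name no animal, counts were summed over the cells of a group within each strain, strains with at least 3 cells of cluster 9 served as the 4 replicates, and the spread between them may in part be technical. In Acta2GFP the strain, the sort on the *Acta2* reporter and an added elastase step in the dissociation cannot be told apart.

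The 59 cells held between 51037 and 942374 counts each, with a median of 296083, and between 3200 and 8921 detected genes. Summed over cells, cluster 9 had 6871501 counts in Acta2GFP, 4799740 in C57BL6, 4784395 in the pool and 2900078 in PdgfrbGFP. Levels are given as counts scaled to a total of 1000000 (CPM) within a group and strain, in the strain order Acta2GFP, C57BL6, pool and PdgfrbGFP, and they are not corrected for gene length, so that they compare groups and not genes. Differences are given as log2 fold change ± standard error from an edgeR quasi-likelihood fit with strain as a block, with p-values adjusted after Benjamini and Hochberg over all genes tested and a threshold of 0.05. Because the clusters were drawn from these counts, passing that threshold is a description of a difference that was large against the spread between strains, and not an independent test of it.

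The perimysium is the connective tissue sheath that bundles muscle fibres into fascicles and leads on to the tendon. Tendon cells are known for the transcription factors scleraxis and mohawk, for tenomodulin, and for a matrix of type I collagen fibrils dressed with small proteoglycans and thrombospondins. Collagen XXII, the product of *Col22a1*, belongs to the collagens that sit on fibril surfaces (FACIT) and is known from the junction of muscle and tendon. Reelin, the product of *Reln*, is a large secreted glycoprotein best known for placing neurons in the developing brain through the receptors VLDLR and APOER2.

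The paper took the name perimysial from these same cells, by high *Thbs1*, *Thbs4* and *Col11a1* with low *Col3a1* and *Pdgfra*. It then located THBS4 protein mainly to fasciae by immunofluorescence. The levels below describe the cells under that name and are no independent support for it. *Tnmd* (tenomodulin) measured 1907, 1817, 1813 and 2352 CPM in cluster 9, against 53.4 to 81.9 CPM in the non-perimysial fibroblasts of the first 3 strains and 15.6 CPM in those of PdgfrbGFP. *Thbs4*, a thrombospondin of tendon and muscle matrix, measured 5443, 5023, 5363 and 9840 CPM in cluster 9 and 416 to 1692 CPM in non-perimysial fibroblasts. At a limit of 100 counts per 500000 counts of a cell, *Thbs4* was found in 57 and *Tnmd* in 56 of the 57 cluster 9 cells of the 4 strains, and *Pdgfra*, the receptor gene that marks most other fibroblasts, in 1. In every strain, cluster 9 lay apart from the non-perimysial fibroblasts in *Tnmd*, *Thbs4* and *Pdgfra*.

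*Col22a1* was the marker with the most even level. It measured 1003, 1081, 933 and 793 CPM in cluster 9 (952.5 ± 122.4, SD, n = 4 strains), 12.9, 45.5, 1.01 and 24.5 CPM in cluster 2, and at most 7.06 CPM in non-perimysial fibroblasts. The lowest strain of cluster 9 thus lay above the highest of every other group, with a log2 fold change of 7.28 ± 0.36 against all other fibroblasts and 5.37 ± 1.00 against cluster 2. The gene lies on chromosome 15, 71795795-72034227 on the minus strand (GRCm38). Above 100 counts per 500000, *Col22a1* was present in 51 of 57 cells of cluster 9, in 11 of 253 of cluster 2, in 2 of 1149 non-perimysial fibroblasts and in 0% of the mural cells of these strains, where 3 cells would be 2.66%. Counts of 1 or more are no measure of expression here, since 40 of those mural cells (35.4%) held at least 1 *Col22a1* count.

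*Reln* (chromosome 5, 21884454-22344702, minus strand) measured 319, 347, 508 and 360 CPM (384 ± 84.5, SD, n = 4) in cluster 9. Cluster 2 held 0.923, 20.8, 3.03 and 3.18 CPM and non-perimysial fibroblasts 0.191 to 3.14 CPM. The groups did not overlap, with a log2 fold change of 7.45 ± 0.55 against all other fibroblasts and 5.97 ± 0.98 against cluster 2. Its signal was less widespread over cells than that of *Col22a1*: 34 of 57 cells exceeded the limit of 100 counts per 500000, and 5 of 253 cells of cluster 2 did. Among all 59 cells, 29 held both *Col22a1* and *Reln* above the limit, 23 held *Col22a1* alone, 5 held *Reln* alone and 2 held neither. *Gm10475*, which shares part of its exons with *Reln*, measured 7.42 to 14.8 CPM in cluster 9, and its reads cannot be told apart from those of *Reln* in the shared part.

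Of the markers fixed for this cluster, *Shisal2b*, a gene of the Shisa-like membrane protein family, measured 220, 294, 194 and 326 CPM and *Ddah1*, which encodes an enzyme that degrades asymmetric dimethylarginine, 628, 338, 421 and 830 CPM. In cluster 2 *Shisal2b* ranged from 1.00 to 33.3 CPM and *Ddah1* from 24.5 to 61.8 CPM, so that both genes were higher in cluster 9 in each strain. *Chil1*, a chitinase-like secreted protein without chitinase activity, measured 48.6, 128.1, 96.8 and 238 CPM in cluster 9 and was at 0 in 3 of 4 strains of cluster 2. Its sum rested on few cells, since 15 of 57 had any count and 9 exceeded the limit. *Tnfrsf11b*, the gene of osteoprotegerin, a decoy receptor for RANK ligand, measured 324, 178.6, 166.8 and 35.5 CPM against 4.26 to 17.6 CPM in cluster 2. *Ltbp2*, a latent TGF-beta binding protein of microfibrils, measured 660 CPM in Acta2GFP and 172.7, 121.2 and 93.8 CPM in the others, against 8.75 to 14.03 CPM in cluster 2. *Tnfrsf11b* and *Ltbp2* were the markers with the widest spread over strains, each highest in Acta2GFP.

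All 7 markers passed the threshold against all other fibroblasts, where 1.68% of 15965 genes tested were higher and 2.04% lower in cluster 9. Against cluster 2, 5 of 7 passed, where 0.555% of 16587 genes were higher and 0.922% lower. *Chil1* (8.08 ± 1.88) and *Ddah1* (3.63 ± 1.05) did not pass against cluster 2. The calls against cluster 2 leaned on each strain: *Shisal2b* (4.47 ± 0.89) missed the threshold when any 1 strain was left out (3.53 to 5.47). *Col22a1* missed it without Acta2GFP (5.14), C57BL6 (6.00) or PdgfrbGFP (5.80), *Reln* without Acta2GFP (5.49), the pool (5.55) or PdgfrbGFP (5.68), *Tnfrsf11b* without Acta2GFP (3.87), C57BL6 (3.91) or the pool (4.00), and *Ltbp2* without Acta2GFP (3.29), C57BL6 (4.15) or PdgfrbGFP (4.51). Against all other fibroblasts, *Tnfrsf11b* missed it without C57BL6 (4.94), and the other 6 markers passed whichever strain was left out. Each of the 59 cells held at least 1 of the 7 markers above the limit, 42 (71.2%) held at least 3, and 1 held all 7. The corresponding share with at least 1 marker was 16.7% in cluster 2, 3.23% in non-perimysial fibroblasts and 0.535% in mural cells.

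**Figure D1:**
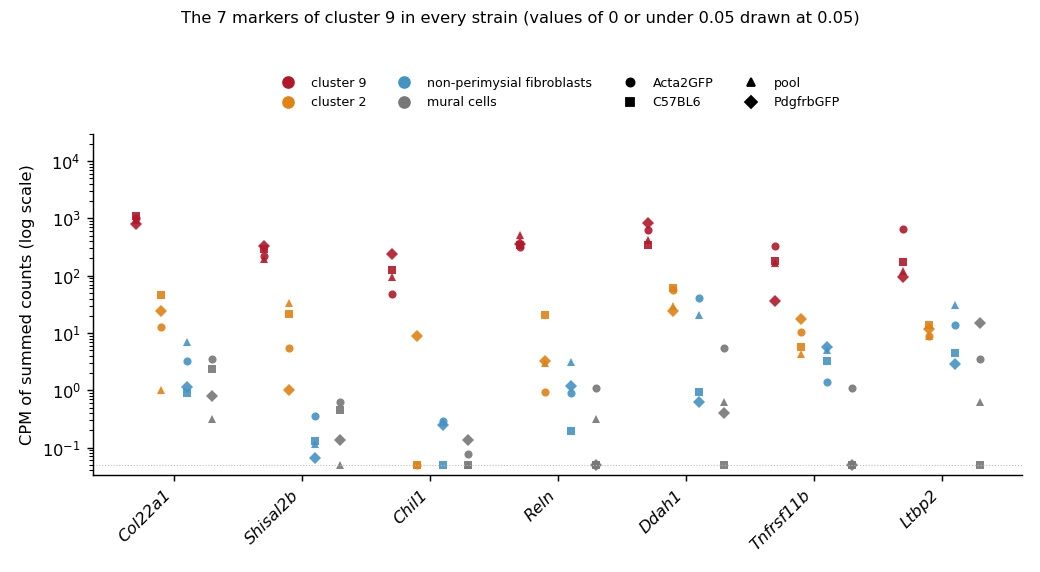
Summed level of the 7 markers in cluster 9, cluster 2, non-perimysial fibroblasts and mural cells (CPM, log axis; 1 point per strain, with values of 0.05 or less drawn at 0.05). For *Col22a1*, the 4 strains of cluster 9 sit between 793 and 1081 CPM and those of cluster 2 between 1.01 and 45.5 CPM, whereas *Ltbp2* and *Tnfrsf11b* spread more widely over the strains of cluster 9.

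The promoters of *Reln* and of *Wif1*, a Wnt inhibitor that stood high in cluster 2 and low in cluster 9, are shown because these genes separated the perimysial clusters in opposite directions. The sequences are the 250 bases before the annotated start in RefSeq (GRCm38.p6), and capitals mark E-boxes (CANNTG), the letters that scleraxis and other basic helix-loop-helix factors can bind.
Reln, chr5:22344706-22344955, minus strand: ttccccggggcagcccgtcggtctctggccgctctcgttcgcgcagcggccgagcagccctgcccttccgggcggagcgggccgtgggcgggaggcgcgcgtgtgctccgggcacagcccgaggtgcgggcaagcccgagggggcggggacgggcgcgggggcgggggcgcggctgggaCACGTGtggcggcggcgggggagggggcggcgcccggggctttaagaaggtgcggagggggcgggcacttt
Wif1, chr10:121033754-121034003, plus strand: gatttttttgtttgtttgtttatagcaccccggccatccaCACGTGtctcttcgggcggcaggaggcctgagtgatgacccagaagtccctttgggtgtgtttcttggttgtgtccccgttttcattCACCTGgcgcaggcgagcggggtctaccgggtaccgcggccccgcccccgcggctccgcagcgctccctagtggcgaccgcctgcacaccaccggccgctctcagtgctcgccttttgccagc
*Reln* held 1 E-box and *Wif1* 2 in this window, and 66.2% of 32851 promoters of the same length held at least 1. The EGR motif GCGNGGGCG, searched on both strands, occurred 2 times in *Reln* and 1 time in *Wif1* and in 4.7% of all promoters, and no AP-1 (TGANTCA, 6.75% of promoters) or TEAD (GGAATG, 12.6%) letters were found in either window. Of the 7 markers, 5 matched the RefSeq promoters, with 0 E-boxes in *Shisal2b*, 2 in *Chil1*, 3 in *Ddah1* and 2 in *Ltbp2*. *Col22a1* and *Tnfrsf11b* are named only.

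Cluster 9 shared the tendon program with cluster 2. *Scx* (scleraxis) measured 380, 340, 465 and 223 CPM in cluster 9 and 236, 172.6, 220 and 115.6 CPM in cluster 2, against at most 15.02 CPM in non-perimysial fibroblasts. *Mkx* (mohawk) measured 380, 281, 325 and 455 CPM in cluster 9, 414 to 488 CPM in cluster 2 and at most 2.76 CPM in non-perimysial fibroblasts. For both factors the perimysial clusters lay far above the rest, while their difference from each other did not pass the threshold (*Scx* 0.77 ± 0.71, *Mkx* −0.48 ± 0.19). The same held for *Tnmd* (−0.42 ± 0.34), *Thbs4* (−0.50 ± 0.30) and *Col12a1* (−0.28 ± 0.29), a fibril-surface collagen of tendon and fascia. Of 12 perimysial and tenocyte markers, 11 were higher in cluster 9 than in non-perimysial fibroblasts and 1, *Egr1*, was lower (median log2 difference 4.41, against −0.376 over all genes tested), where 2.63% of genes were higher and 4.24% lower. For cluster 2, 11 of the 12 were higher than in the same non-perimysial cells (median 5.74), where 2.11% of genes were higher and 2.88% lower. These 2 comparisons share the non-perimysial sums, and the 12 markers include *Thbs1*, *Thbs4* and *Col11a1*, from which the name perimysial was taken.

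The match extended to genes known from cartilage. *Chad* (chondroadherin) measured 3195, 2016, 2081 and 3570 CPM in cluster 9 and at most 91.7 CPM in non-perimysial fibroblasts. *Col11a1*, a minor fibrillar collagen that seeds fibrils, measured 404, 550, 561 and 338 CPM in cluster 9 and 272 to 531 CPM in cluster 2, a difference of 0.06 ± 0.44 on the log2 scale. *Col2a1*, the main collagen of cartilage, was at 58.5, 84.6, 237 and 90 CPM and had counts in 18 of 57 cells. Of the 21 cartilage-type genes tested against non-perimysial fibroblasts, 12 were higher in cluster 9 and 1, *Sox5*, was lower, where 2.63% of all genes were higher and 4.24% lower. Against cluster 2, where 0.555% of all genes were higher and 0.922% lower, 1 of these genes passed. This was *Cilp2*, which was lower in cluster 9 (−1.48 ± 0.29) and missed the threshold when any 1 strain was left out (−1.74 to −1.21). *Chodl*, a membrane C-type lectin, stood at 958, 1627, 1257 and 1270 CPM in cluster 9 and at 849, 742, 396 and 288 CPM in cluster 2. Its level was higher in cluster 9 in each strain, but the difference of 1.30 ± 0.57 did not pass. *Ptx4*, a long pentraxin, gave a like picture with 1099 to 1730 CPM in cluster 9 and 371 to 939 CPM in cluster 2 (1.40 ± 0.59, not passed).

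*Ccn1* and *Ccn2*, matricellular proteins known as targets of the mechanosensitive YAP pathway, were higher than in all other fibroblasts by 1.55 ± 0.17 and 2.30 ± 0.15 on the log2 scale, with *Ccn2* at 1705, 1094, 1377 and 1635 CPM. Neither passed against cluster 2 (−0.22 ± 0.19 and 0.64 ± 0.24), where *Ccn2* measured 979, 416, 1336 and 965 CPM. *Ccn2* shares 22.9% of its exonic length with *Gm15270*. Of the YAP and SRF target genes, 3 of 15 tested were higher than in all other fibroblasts, where 1.68% of all genes were, and 5 of 16 were higher than in non-perimysial fibroblasts, where 2.63% were, among them *Piezo1* (1.99 ± 0.35), a stretch-gated channel with 25.1% exonic overlap. Against all other fibroblasts *Piezo1* passed too (1.61), a call that was lost when any 1 strain was left out (1.44 to 1.77). *Acta2*, smooth muscle actin, measured 856, 306, 380 and 692 CPM in cluster 9 and 790, 233, 330 and 478 CPM in cluster 2, which differed by 0.23 ± 0.45. Part of the *Acta2* level in Acta2GFP can come from the sort, which selected on its reporter. Of 13 contractile genes, 6 were higher than in non-perimysial fibroblasts, against the same 2.63% of all genes, including *Tpm1* (2.21 ± 0.16) and *Myl9* (1.37 ± 0.30).

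The perimysial clusters also shared what they lacked. *Pdgfra* measured 20.5, 4.58, 23.4 and 38.3 CPM in cluster 9 and 12 to 56.1 CPM in cluster 2, against 516 to 1039 CPM in non-perimysial fibroblasts. *Ly6a*, the Sca1 antigen of fibro-adipogenic progenitors, measured 15.6 to 62.3 CPM in cluster 9 and 951 to 1210 CPM in non-perimysial fibroblasts. Of 21 genes known as markers of fibro-adipogenic progenitors or of fibroblasts across organs, 15 were lower than in all other fibroblasts, where 2.04% of all genes were. Against non-perimysial fibroblasts 18 were lower, where 4.24% of all genes were, with a median log2 difference of −4.64. In cluster 2, 14 of the 21 were lower than in non-perimysial fibroblasts (median −4.33), where 2.88% of all genes were. *Col3a1*, the type III collagen of loose connective tissue, was lower than in non-perimysial fibroblasts (−2.27 ± 0.22), with 978, 742, 1225 and 501 CPM in cluster 9 and 3624 to 5557 CPM in the others. *Smoc2*, *Ccl11*, *Cd248* and *Hsd11b1* moved likewise, by −4.02 ± 0.22, −6.29 ± 0.29, −3.67 ± 0.40 and −6.73 ± 0.39.

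**Figure D2:**
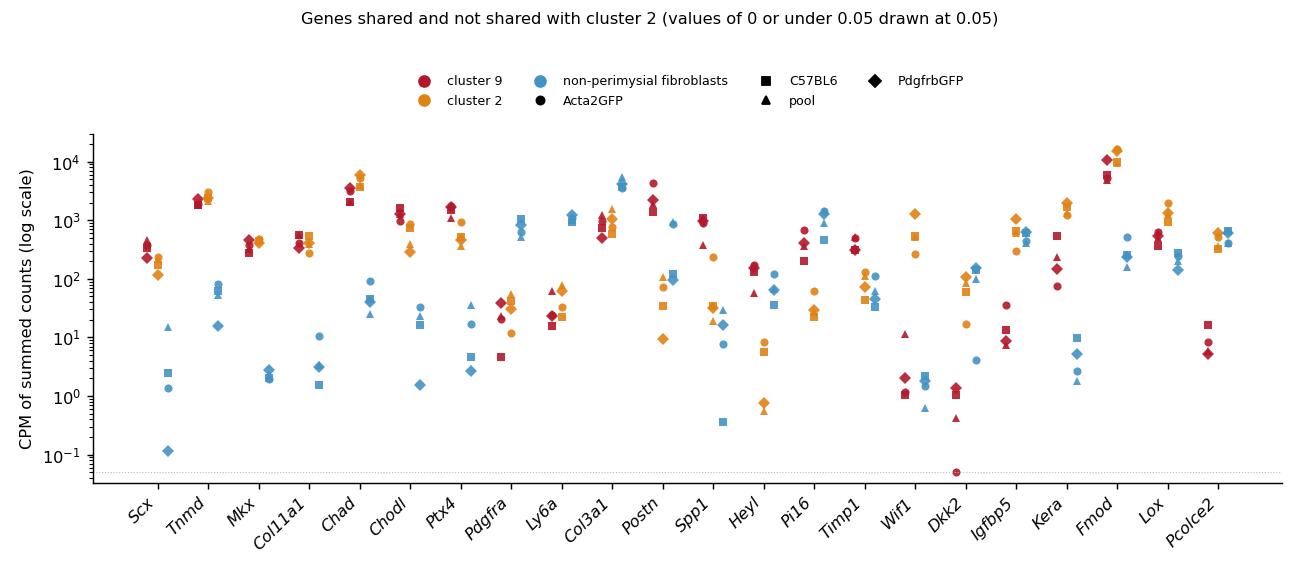
Summed level of 22 genes in cluster 9, cluster 2 and non-perimysial fibroblasts (CPM, log axis; 1 point per strain). *Scx*, *Tnmd*, *Mkx* and *Chad* lie together in the perimysial clusters and above the rest, *Postn*, *Heyl* and *Pi16* are higher in cluster 9 than in cluster 2, and *Wif1*, *Dkk2*, *Igfbp5* and *Kera* are lower.

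What cluster 9 held and cluster 2 lacked was led by *Postn* beyond the fixed markers. *Postn*, the matricellular protein periostin, measured 4410, 1360, 1877 and 2207 CPM in cluster 9 and 72.02, 34.2, 107.7 and 9.25 CPM in cluster 2. The groups did not overlap, the difference of 5.83 ± 0.62 on the log2 scale passed the threshold under all 12 alternative fits, and 46 of 57 cells of cluster 9 exceeded 100 counts per 500000. *Postn* was not particular to cluster 9 among fibroblasts, since non-perimysial cells held 849, 119.1, 953 and 95.9 CPM, and its call against all other fibroblasts (3.18 ± 0.58) was lost without Acta2GFP (3.34), C57BL6 (2.85) or PdgfrbGFP (2.56). The paper describes *Postn*, *C1qtnf3* and *Cthrc1* in cluster 4, its paramysial cells at the fringe of the perimysium. Of these 3 genes, 2 were higher in cluster 9 than in all other fibroblasts, where 1.68% of all genes were. Besides *Postn* this was *Cthrc1* (2.54), a call lost without Acta2GFP (2.85), C57BL6 (2.53) or the pool (2.9). Against cluster 2, 1 of the 3 was higher, where 0.555% of all genes were. The part of cluster 4 in the non-perimysial level was not tested. *Spp1*, osteopontin, with 18.9% exonic overlap with *Gm42793*, measured 914, 1077, 386 and 984 CPM in cluster 9 and 18.96 to 240 CPM in cluster 2. It passed against all other fibroblasts (5.32 ± 0.51) and did not pass against cluster 2 (3.87 ± 1.15).

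Some genes of other fibroblasts were retained in cluster 9 and low in cluster 2. *Heyl*, a target gene of Notch signalling, measured 175.2, 133.3, 58.1 and 155.5 CPM in cluster 9, 0.561 to 8.31 CPM in cluster 2 (5.38 ± 0.76) and 35.5 to 119.1 CPM in non-perimysial fibroblasts. *Pi16*, a peptidase inhibitor known from adventitial fibroblasts, measured 675, 199, 360 and 402 CPM in cluster 9 and 22.2 to 60.9 CPM in cluster 2 (3.40 ± 0.20), below the 467 to 1425 CPM of non-perimysial fibroblasts. The microfibril gene *Mfap5* (1.86 ± 0.18), the proteoglycan *Podn* (1.57 ± 0.26), the elastic fibre glycoprotein *Emilin2* (2.82 ± 0.55) and the crosslinking enzyme *Loxl1* (1.30 ± 0.23) followed the same order, each lower in cluster 2 than in cluster 9. Of these, *Podn* missed the threshold without C57BL6 (1.48) or PdgfrbGFP (1.39), *Emilin2* without Acta2GFP (2.32), C57BL6 (2.62) or the pool (2.94), and *Loxl1* without Acta2GFP (1.45), C57BL6 (1.14) or PdgfrbGFP (1.10), while *Heyl*, *Pi16*, *Mfap5* and *Timp1* passed whichever strain was left out. *Timp1*, an inhibitor of matrix metalloproteinases, measured 500, 308, 528 and 316 CPM in cluster 9 and 90.69 ± 39.6 CPM in cluster 2 (SD, n = 4; log2 difference 2.16 ± 0.24). It was also higher than in all other fibroblasts (2.84 ± 0.24). *Mmp14*, a membrane-bound collagenase (1.17 ± 0.18), and *Tgfbr2*, the type II TGF-beta receptor (1.00 ± 0.20), were higher than in cluster 2, and neither passed against all other fibroblasts. Both calls rested on the number of strains, since *Mmp14* missed the threshold without Acta2GFP (1.16), the pool (1.24) or PdgfrbGFP (1.06) and *Tgfbr2* without C57BL6 (0.83), the pool (1.07) or PdgfrbGFP (1.01).

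Several genes with a large difference from cluster 2 rested on few cells of cluster 9. *Col25a1*, a membrane collagen, had 425 counts in 9 cells of cluster 9 and 2 counts in cluster 2, a ratio of 741 with an exact Poisson interval of 205 to 6122 that covers counting error only. *Vdr*, the vitamin D receptor, had 451 counts in 12 cells against 1 count. *Uchl1*, a ubiquitin hydrolase of neurons with 18.1% exonic overlap, had counts in 30 cells, with 75.4, 88.6, 150.5 and 52.8 CPM against at most 5.66 CPM in cluster 2. Non-perimysial fibroblasts held 0.703 to 18.4 CPM of *Vdr* and 24.8 to 48.1 CPM of *Uchl1*. Neither gene passed against all other fibroblasts (3.40 ± 1.36 and 1.63 ± 0.38). Both were lower in cluster 2 than in non-perimysial fibroblasts (−7.12 ± 1.66 and −4.46 ± 0.98). *Prss35*, a serine protease family member, was at 25.2, 102.1, 94.3 and 195 CPM in 15 cells, and the largest fitted difference, of *2900011O08Rik*, rested on 342 counts in 8 cells. *Nptx1*, a neuronal pentraxin among the 10 highest genes against all other fibroblasts, had counts in 11 cells. These calls leaned on single strains. Against cluster 2, *Vdr*, *Prss35* and *2900011O08Rik* missed the threshold when any 1 strain was left out (log2 fold changes of 9.25 to 12.73, 5.50 to 8.32 and 10.56 to 12.81), *Col25a1* without C57BL6 (12.83), the pool (9.62) or PdgfrbGFP (10.02), and *Uchl1* without Acta2GFP (5.95), C57BL6 (5.21) or the pool (5.06). Against all other fibroblasts, *Nptx1* missed it without Acta2GFP (7.19) or PdgfrbGFP (8.57).

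*Wif1*, *Dkk2*, *Sfrp2* and *Sfrp4*, secreted modulators of Wnt signals, were lower in cluster 9 than in cluster 2. *Wif1* measured 1.16, 1.04, 11.5 and 2.07 CPM in cluster 9 against 267, 529, 528 and 1268 CPM in cluster 2, a log2 difference of −7.55 ± 0.85. No cell of cluster 9 reached 100 counts per 500000 of *Wif1*, whereas 110 of 253 cells of cluster 2 did. In *Wif1* cluster 9 resembled the non-perimysial fibroblasts, which held 0.624 to 2.16 CPM. *Dkk2*, which blocks the Wnt co-receptor, measured at most 1.38 CPM in cluster 9 and 17.1, 58.8, 86.2 and 108.1 CPM in cluster 2 (−7.17 ± 0.78). *Sfrp2* (−5.14 ± 0.59, 16.2% exonic overlap) and *Sfrp4* (−3.51 ± 0.66), are secreted decoys for Wnt ligands. *Rspo1* and *Rspo2*, which potentiate Wnt signalling, had 0 counts in cluster 9, and against non-perimysial fibroblasts the floor of 3 counts puts them at least 18.8-fold and at least 33.9-fold lower. Of 14 Wnt modulators tested, 4 were lower than in cluster 2, where 0.922% of all genes were, and 6 were lower than in non-perimysial fibroblasts, where 4.24% were. Their median log2 difference from cluster 2 was −3.45 as fitted and −0.96 with the genes at 0 counts set to their bound. Whichever strain was left out, *Wif1*, *Dkk2* and *Sfrp2* passed against cluster 2, whereas *Sfrp4* missed the threshold without C57BL6 (−3.86), the pool (−2.85) or PdgfrbGFP (−3.19).

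Of 19 BMP and GDF ligands and antagonists tested, 3 were lower than in cluster 2 and 0 higher, and of 10 genes of the insulin-like growth factor system 3 were lower and 0 higher, where 0.922% of all genes were lower and 0.555% higher. *Bmp3*, a BMP that antagonises others, measured 0.418 to 1.88 CPM in cluster 9 and 40.6, 98.8, 106.7 and 88.9 CPM in cluster 2 (−6.51 ± 0.73). *Chrdl1*, a secreted BMP antagonist, measured 14.3 CPM in Acta2GFP, 11.7 in C57BL6 and 16.2 in PdgfrbGFP, was higher in the pool (mean of the 4 strains 41.8 ± 55.5 CPM, SD), and stood at 462 to 932 CPM in cluster 2 (−4.83 ± 0.70). *Igfbp5*, an insulin-like growth factor binding protein, measured 35.4, 13.5, 7.32 and 8.62 CPM in cluster 9, 300 to 1054 CPM in cluster 2 and 415 to 623 CPM in non-perimysial fibroblasts. Unlike *Wif1*, *Igfbp5* was thus lower in cluster 9 than in either (−5.52 ± 0.57 and −5.0 ± 0.55). *Igfbp4* and *Igfbp6* were lower than in cluster 2 by smaller steps (−0.85 ± 0.15 and −1.14 ± 0.12), and *Igf1* itself measured 386 to 865 CPM and did not pass in any comparison (0.06 ± 0.20 against cluster 2). *Bmp3*, *Igfbp5* and *Igfbp6* passed against cluster 2 whichever strain was left out. *Igfbp4* (−0.93 to −0.74) missed the threshold when any 1 strain was left out, and *Chrdl1* without Acta2GFP (−4.35), C57BL6 (−4.61) or PdgfrbGFP (−4.40).

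Part of the tendon matrix was weaker in cluster 9 than in cluster 2. *Kera* (keratocan), a proteoglycan of cornea and tendon, measured 75.4, 544, 232 and 147.6 CPM against 1217 to 1940 CPM (−3.08 ± 0.42). *Col1a1* and *Col1a2*, the chains of type I collagen, measured 5281 to 7630 and 4170 to 6361 CPM, lower than cluster 2 by small steps that were even over strains (−0.91 ± 0.11 and −1.04 ± 0.12) and higher than non-perimysial fibroblasts (0.76 ± 0.11 and 0.50 ± 0.11). *Lox* (−1.55 ± 0.24), which crosslinks collagen, *Prelp* (−1.44 ± 0.18), *Thbs2* (−1.31 ± 0.26) and *Dcn* (−1.11 ± 0.10) were lower than in cluster 2. *Pcolce2*, which enhances procollagen processing, was lower in cluster 9 than in either group, with 5.17 to 16.04 CPM against 328 to 604 CPM in cluster 2 and 411 to 663 CPM in non-perimysial fibroblasts. *Tnxb* (−4.28 ± 0.72), *Tgfbi* (−3.10 ± 0.22) and *Fbln1* (−2.83 ± 0.36) lay below cluster 2 too, as did *Mylk*, myosin light chain kinase (−3.94 ± 0.28). Of 20 tendon genes, 1 was higher (*Egr2*, 3.59 ± 0.67, counts in 19 of 57 cells) and 7 were lower than in cluster 2, where 0.555% of all genes were higher and 0.922% lower. Against non-perimysial fibroblasts 14 were higher and 3 lower, where 2.63% of all genes were higher and 4.24% lower. *Col1a1*, *Col1a2*, *Prelp*, *Dcn*, *Pcolce2*, *Tgfbi*, *Fbln1* and *Mylk* passed against cluster 2 whichever strain was left out. *Kera* missed the threshold without PdgfrbGFP (−2.81), *Lox* without Acta2GFP (−1.47) or the pool (−1.56), *Tnxb* without C57BL6 (−3.86) or PdgfrbGFP (−3.55), *Egr2* without Acta2GFP (3.57), the pool (3.03) or PdgfrbGFP (3.30), and *Thbs2* (−1.53 to −1.03) when any 1 strain was left out.

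Some cluster 2 genes were at or near 0 in cluster 9. *Egfl6*, a secreted epidermal growth factor repeat protein, had 2 counts in cluster 9 and 66.5, 187, 194 and 269 CPM in cluster 2. *Lepr*, the leptin receptor, had 4 counts in cluster 9 and 23.1, 167.5, 138.3 and 261 CPM in cluster 2. *Faim2*, an inhibitor of apoptosis known from neurons, had 0 counts, which at the floor of 3 counts over the group is at least 674-fold lower than in cluster 2. *S100a5*, a calcium-binding protein, was at least 345-fold lower on the same floor. *Fgf9*, a fibroblast growth factor, had 1 count in cluster 9. Among the genes lowest against all other fibroblasts, *Alkal2*, a ligand of the receptor kinase ALK with 35.1% exonic overlap, had 0 counts and was at least 248-fold lower, and *Fgf10* had 3 counts, all in 1 cell. *Egfl6*, *Lepr* and *Faim2* passed against cluster 2 whichever strain was left out, while *S100a5* missed the threshold when any 1 strain was left out (−14.79 to −13.13), *Fgf9* without the pool (−8.90) or PdgfrbGFP (−13.99), and, against all other fibroblasts, *Alkal2* when any 1 strain was left out (−14.46 to −13.17) and *Fgf10* without C57BL6 (−12.94), the pool (−7.57) or PdgfrbGFP (−7.97).

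Of the 11 reelin pathway genes tested, *Reln* and *Itgb1*, an integrin chain, were higher than in all other fibroblasts (*Itgb1* 0.71 ± 0.15) and *Vldlr*, the reelin receptor, was lower, where 1.68% of all genes were higher and 2.04% lower. *Vldlr* measured 0.437, 1.25, 5.85 and 0.690 CPM in cluster 9 and 78.02 to 126.4 CPM in non-perimysial fibroblasts. Cluster 2 held 0.354 to 1.85 CPM of *Vldlr*, so that a low level was common to the perimysial clusters. Of the 8 nitric oxide and dimethylarginine genes tested, *Ddah1* was higher and *Gucy1a1*, a subunit of the nitric oxide receptor, lower than in non-perimysial fibroblasts (−4.35 ± 1.11), where 2.63% of all genes were higher and 4.24% lower. *Ddah2* lay at 204 to 520 CPM (0.02 ± 0.24 against cluster 2). Collagens of the FACIT group split, with *Col22a1* high, *Col12a1* shared with cluster 2 and *Col14a1* low in cluster 9 (2.76 to 6.90 CPM, against 266 to 385 CPM in non-perimysial fibroblasts and 6.60 to 21.4 CPM in cluster 2). Latent TGF-beta binding proteins split as well: *Ltbp2* and *Ltbp3* (1.11 ± 0.19) were higher and *Ltbp4* (−1.19 ± 0.16) was lower than in all other fibroblasts. *Tgfb3* was the TGF-beta ligand that was higher, with 469 to 794 CPM against at most 220 CPM in non-perimysial fibroblasts (1.94 ± 0.24). Of 16 elastic fibre genes, 7 were lower than in all other fibroblasts, *Eln* (elastin) by −4.18 ± 0.74, where 2.04% of all genes were lower. In the same comparison 3 were higher, *Mfap4*, *Emilin1* and *Ltbp2*, where 1.68% of all genes were. Against all other fibroblasts, *Itgb1* (0.64 to 0.74) and *Emilin1* (0.90 to 1.12) missed the threshold when any 1 strain was left out, *Ltbp3* without Acta2GFP (1.03), the pool (1.02) or PdgfrbGFP (1.13), and *Eln* without C57BL6 (−4.08), the pool (−3.75) or PdgfrbGFP (−3.67).

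Among axon guidance genes, *Ntng1*, a membrane-anchored netrin, measured 103.8, 96.5, 216 and 32.4 CPM in cluster 9, 19.9 to 48.7 CPM in cluster 2 and under 1 CPM in non-perimysial fibroblasts. *Epha7*, an ephrin receptor, was higher than in all other fibroblasts (3.27 ± 0.70). *Sema3a* and *Sema3b*, secreted repellents of axons and vessels, were lower in cluster 9 than in cluster 2 (−3.28 ± 0.52 and −2.17 ± 0.43). Of the transcription factors of connective tissue, *Scx*, *Mkx* and *Tcf4* (0.96 ± 0.14) were higher than in all other fibroblasts and *Osr1*, a factor of fibro-adipogenic progenitors, was lower (−6.46 ± 0.37). *Prrx1*, a limb mesenchyme factor, was lower than in cluster 2 (−1.07 ± 0.20). *Itga10*, a collagen-binding integrin chain with 33.6% exonic overlap, measured 36.4, 51.3, 55.4 and 53.8 CPM and was higher than in all other fibroblasts (3.96 ± 0.83), whereas *Itga2*, another collagen-binding chain, had 3 counts in cluster 9 and 29.3 to 87.7 CPM in cluster 2. *Itga2* passed against cluster 2 whichever strain was left out, whereas *Prrx1* missed the threshold when any 1 strain was left out (−1.24 to −0.94) and *Sema3a* (−3.28 to −3.18) and *Sema3b* (−2.32 to −1.98) without C57BL6, the pool or PdgfrbGFP. Against all other fibroblasts, *Epha7* missed it when any 1 strain was left out (3.04 to 3.52), *Ntng1* without Acta2GFP (3.90) or the pool (3.81), *Mkx* without Acta2GFP (2.57) or PdgfrbGFP (2.47), *Tcf4* without Acta2GFP (0.87), and *Itga10* without Acta2GFP (3.40), the pool (3.86) or PdgfrbGFP (4.05).

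Markers of other cell types were low with few exceptions. The summed mural markers ranged from 2.72 to 180 CPM in cluster 9 over strains against 8541 to 12530 CPM in mural cells, of which *Des* held 117.4, 86.9, 0.627 and 6.55 CPM. Immune markers summed to 10.5 to 215 CPM, led by *Lyz2* in 5 cells, with *Ptprc* at 0 in 3 of 4 strains. Muscle fibre markers summed to 37.4 to 235 CPM, with *Acta1* at 25.7 to 120 CPM and *Myh1* at 0. The satellite cell list summed to 1080 to 1658 CPM, nearly all of it *Chodl*, while the defining genes *Pax7*, *Myod1* and *Cdh15* were at 0 in cluster 9. Schwann cell markers summed to 31.1 to 81.4 CPM, and endoneurial markers to 18.97 to 99.3 CPM, against 43.8 to 86.7 CPM in cluster 2. Endothelial markers summed to 24.04 to 60.2 CPM, most of it *Cdh5*, VE-cadherin, at 44.5, 44.2, 16.5 and 32.4 CPM with counts in 30 of 57 cells. *Cdh5* was higher than in all other fibroblasts (5.16 ± 1.12), a call that was lost when any 1 strain was left out (4.43 to 5.88), while *Pecam1* stayed at 1.601 to 8.28 CPM and *Kdr* at 0 to 0.418 CPM. The part of such cells or of their free RNA in these values was not tested. Of 21 immediate early genes, which respond to dissociation, 1 was lower than in all other fibroblasts (*Klf4*, −1.97 ± 0.29), where 2.04% of all genes were, and 5 were lower than in non-perimysial fibroblasts, where 4.24% were. Of these genes, *Fos* stood at 1329 to 2000 CPM in cluster 9 and at 1278 to 2617 CPM in non-perimysial fibroblasts.

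The muscle of origin was not used in forming the clusters. In the pool, 8 soleus cells were cluster 9, which made up 4.55% of the soleus fibroblasts (exact 95% binomial interval 1.98 to 8.76), and 1 of 225 gastrocnemius fibroblasts was (0.444%, 0.0113 to 2.45). In PdgfrbGFP, 9 soleus cells made up 8.26% of the soleus fibroblasts (3.85 to 15.1) and 1 gastrocnemius cell 0.763% of the gastrocnemius fibroblasts (0.0193 to 4.18). The share was higher in soleus in both strains. Cluster 2 went the other way, with 4.55% of soleus and 8.44% of gastrocnemius fibroblasts in the pool and 6.42% and 13.7% in PdgfrbGFP. Of the perimysial cells alone, cluster 9 took 8 of 16 in soleus and 1 of 20 in gastrocnemius of the pool, and 9 of 16 and 1 of 19 in PdgfrbGFP. With 2 strains no exact permutation test over samples can reach the threshold, and the intervals cover counting error only. In the pool each muscle was its own plate, so that muscle and plate cannot be told apart, while in PdgfrbGFP both muscles carry the same plate number. Soleus fibroblasts were the more deeply sequenced, with a median of 501882 against 293769 counts in the pool and 164434 against 132584 in PdgfrbGFP, and the part of depth was not tested.

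**Figure D3:**
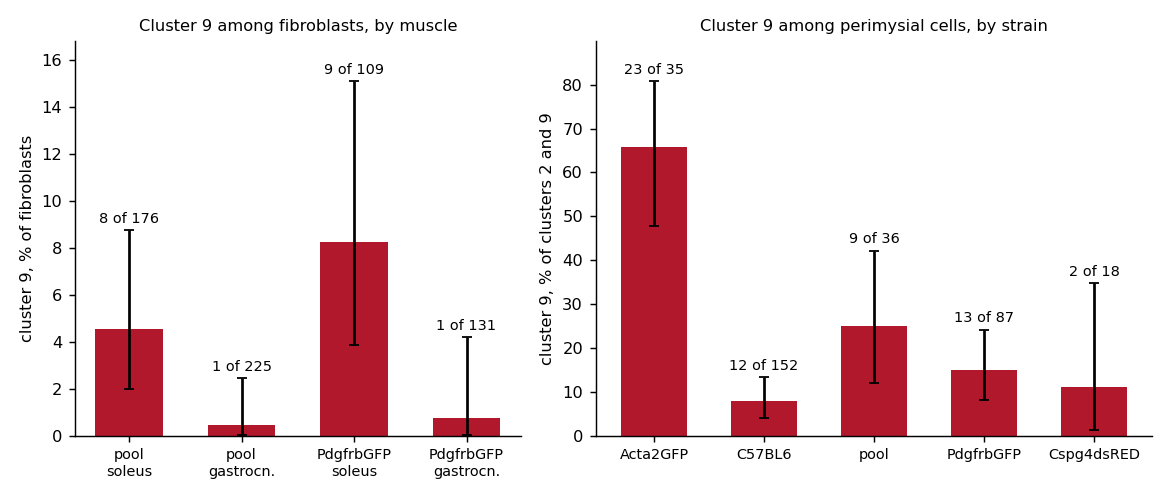
Left, cluster 9 as a percentage of fibroblasts in soleus and gastrocnemius of the pool and PdgfrbGFP, with exact 95% binomial intervals. Right, cluster 9 as a percentage of the cells of clusters 2 and 9 in each strain, where Acta2GFP stands at 65.7% and the other 4 strains between 7.90% and 25%.

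Over strains, cluster 9 was 22.8% of the fibroblasts of Acta2GFP, 3.30% of C57BL6, 2.24% of the pool, 2.19% of PdgfrbGFP and 1.87% of Cspg4dsRED. Among perimysial cells the order was Acta2GFP (65.7%), the pool (25%), PdgfrbGFP (14.9%), Cspg4dsRED (11.1%) and C57BL6 (7.90%). Acta2GFP cells came from 1 plate, and its strain, sort and elastase step cannot be told apart. The 2 Cspg4dsRED cells, left out of the 4 strain sums because there were under 3, held most of the cluster's markers. In these cells *Thbs4* stood at 13510 and 12570 CPM, *Chil1* at 566 and 651 CPM and *Reln* at 182 and 142.3 CPM, while *Col22a1* was at 1395 CPM in one and 0 in the other. *Scx* was at 0 in both.

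Since cluster 9 came mostly from soleus and cluster 2 mostly from gastrocnemius where the muscles were kept apart, the same genes were read within soleus, where 8 and 9 cells of cluster 9 met 8 and 7 of cluster 2. *Col22a1* measured 950 against 3.38 CPM in soleus of the pool and 455 against 1.03 CPM in soleus of PdgfrbGFP. *Reln* measured 522 against 7.89 CPM and 294 against 29.9 CPM, *Postn* 2031 against 330 CPM and 2436 against 7.21 CPM, and *Heyl* 43.6 against 1.13 CPM in the pool, with 5 cells of cluster 9 and 0 of cluster 2 holding counts of it in PdgfrbGFP. These 4 genes were higher in cluster 9 within soleus of both strains. *Ltbp2* and *Tnfrsf11b* were not: in soleus of PdgfrbGFP cluster 9 held 10.6 and 42.5 CPM and cluster 2 held 121.5 and 308 CPM, the *Tnfrsf11b* counts of cluster 2 coming from 1 cell.

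The genes lower in cluster 9 read differently within soleus. *Dkk2* measured 0.228 CPM in cluster 9 and 0.376 CPM in cluster 2 of pool soleus, against 122.7 CPM in cluster 2 of pool gastrocnemius, and was at 0 in both clusters of PdgfrbGFP soleus against 247 CPM in gastrocnemius. *Igfbp5* measured 7.98 and 31.6 CPM in clusters 9 and 2 of pool soleus and 847 CPM in cluster 2 of gastrocnemius, and in PdgfrbGFP 7.67, 10.3 and 1823 CPM. *Bmp3*, *Lepr* and *Faim2* followed that pattern, with cluster 2 of soleus at 0 to 18.8 CPM and cluster 2 of gastrocnemius at 67.7 to 189 CPM. In the same order, *Tnxb* measured 30.3, 31.6 and 275 CPM in the pool and 2.36, 5.15 and 289 CPM in PdgfrbGFP. *Sfrp4* measured 8.44, 11.3 and 255.5 CPM, and 7.67, 8.24 and 308 CPM. *Sfrp2* measured 0.456, 21.4 and 121.7 CPM, and 2.36, 1.03 and 247 CPM. *Fbln1* stayed lower in cluster 9 within soleus, at 466 against 1607 CPM in the pool and 398 against 1532 CPM in PdgfrbGFP. *Wif1* was intermediate in the pool, with 12.6 CPM in cluster 9, 183 CPM in soleus cluster 2 and 675 CPM in gastrocnemius cluster 2, and stood at 0, 8.24 and 1693 CPM in PdgfrbGFP. *Kera* was lower in cluster 9 than in soleus cluster 2 of the pool (253 against 617 CPM) and higher in PdgfrbGFP (228 against 2.06 CPM). In *Dkk2*, *Igfbp5*, *Bmp3*, *Lepr*, *Faim2* and *Wif1* the soleus cells of cluster 2 lay nearer to cluster 9 than the gastrocnemius cells of cluster 2 did, and *Kera* followed no such order in PdgfrbGFP. Of the 245 genes that passed against cluster 2, 92 were higher in cluster 9, and 74 of them were higher within soleus of both strains. Of the other genes, which were lower, 90 were lower in both, while 17 were higher in cluster 9 in the pool and 32 in PdgfrbGFP. The soleus cells are part of the sums behind those calls, so these counts are no independent support, and the part of the muscle in the differences was not tested. The 2 cluster 9 cells from gastrocnemius held 751 and 223 CPM of *Col22a1*, 347 and 0 CPM of *Reln* and 0 CPM of *Wif1* each.

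**Figure D4:**
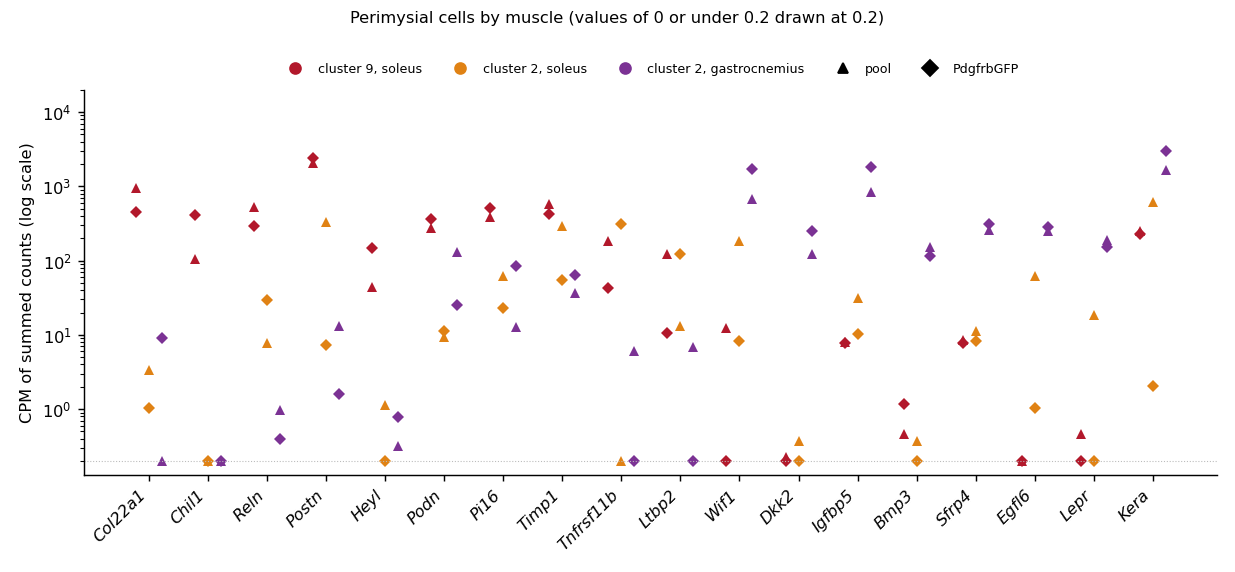
Level of 18 genes in cluster 9 from soleus, cluster 2 from soleus and cluster 2 from gastrocnemius (CPM, log axis; 1 point per strain for the pool and PdgfrbGFP, values of 0.2 or less drawn at 0.2). *Col22a1*, *Postn* and *Heyl* separate cluster 9 from both sets of cluster 2, whereas *Dkk2*, *Igfbp5*, *Bmp3* and *Lepr* are high in gastrocnemius cluster 2 and low in both soleus sets.

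The spike-in share falls as a cell yields more RNA. The paper kept the spike-in counts as technical controls and does not state whether they entered the clustering of cells. The median share per strain was 1.17 ± 0.42% in cluster 9 and 1.52 ± 0.416% in cluster 2 (SD, n = 4), a difference of −0.346 ± 0.221 percentage points. It was lower in cluster 9 in 4 of 4 strains, with a two-sided exact permutation p of 0.13, the smallest that 4 strains allow. Against non-perimysial fibroblasts (1.22 ± 0.328%) the difference was −0.0509 ± 0.203 points (exact permutation p = 0.75, n = 4). Thinned to 50000 counts per cell, cluster 9 showed a median of 4300, 2616, 4260 and 3614 genes and cluster 2 of 3720, 2275, 3250 and 3008. Cluster 9 was higher in 4 of 4 strains, by 634 ± 278 genes (exact permutation p = 0.13, n = 4), and in 3 of 4 against non-perimysial fibroblasts (317 ± 396, p = 0.25). Thinning left out 0 cells of cluster 9.

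**Figure D5:**
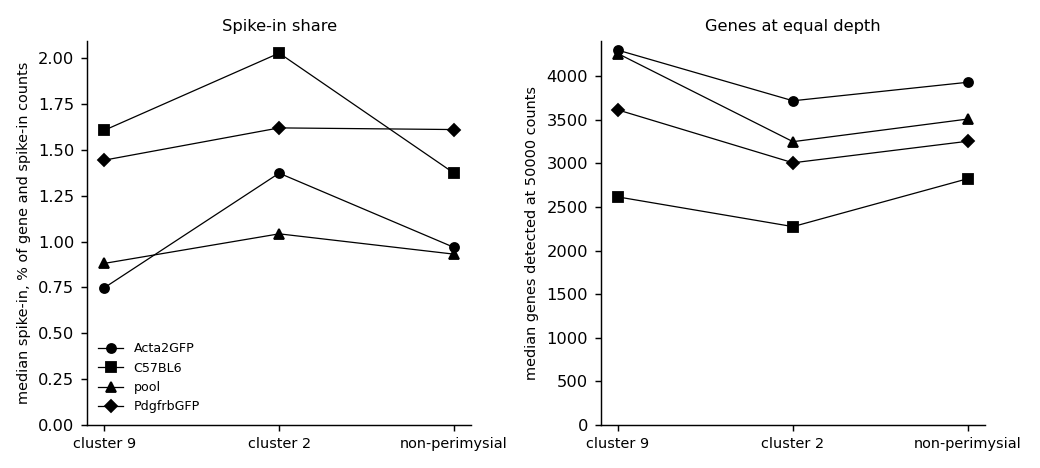
Left, median spike-in share of counts (percent), and right, median number of genes detected at 50000 counts per cell, in cluster 9, cluster 2 and non-perimysial fibroblasts, with 1 line per strain. In all 4 strains cluster 9 lies below cluster 2 in spike-in share and above it in genes detected.

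Over all genes expressed and all cells, the profile of cluster 9 correlated best with that of cluster 2. The correlation of mean log2(CPM + 1) across genes, which are not independent replicates, averaged 0.871 with cluster 2 over the 4 strains (range 0.862 to 0.876). It averaged 0.808 with cluster 3 and 0.666 with the mural cells over 4 strains. Fewer strains held 3 cells of some clusters. The mean was 0.808 with cluster 6 and 0.713 with cluster 5 (range 0.635 to 0.76) over 3 strains, and 0.717 with cluster 10 over 2. With equal numbers of cells in each cluster, the correlation with cluster 2 averaged 0.651 and that with cluster 4, the next, 0.642, so that the lead of cluster 2 then came to 0.009. Clusters 2 and 4 then tied in Acta2GFP (0.754 each), and cluster 4 was ahead in PdgfrbGFP (0.661 against 0.658). These equal sets were small, with 6 cells per cluster in Acta2GFP, 3 in C57BL6, 3 in the pool and 4 in PdgfrbGFP. Over their 2000 most variable genes, the mean was 0.471 with cluster 2 and 0.382 with cluster 4, and cluster 2 was ahead in each strain. The parts of unequal cell number and of small sets in these correlations were not tested.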

How the data were processed

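Skeletal muscle cells of 5 mouse strain labels were profiled by Smart-seq2. Per the labels and methods, the authors trimmed single 50-base reads, aligned them to GRCm38 with TopHat2 on Bowtie and counted them per gene with featureCounts. The protocol does not mark strand, so overlapping genes share reads. They removed cells with few counts or genes, cells with very many genes as possible doublets, cells lacking both PDGF receptor genes and cells whose transcripts were those of endothelium or of the immune system. The deposited values are raw read counts per gene and cell. The submitters' processing notes also name bcl2fastq, and the annotation release is not given in the sources used here. The table held 46517 genes, 92 spike-ins (1.3064% of counts, left out of sums) and 1 column without a label, which was not used. No doublets were called here. Coordinates and exonic overlaps come from an annotation of GRCm38 that matched 46005 identifiers.

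Counts were summed per strain and group with at least 3 cells. Groups were compared in edgeR 4.0.16 (R 4.3.3, TMM scaling, filterByExpr, quasi-likelihood test, prior count 2) with strain as a block, and adjusted over all genes tested. The block pairs the sums of a strain but not its plates or muscles. In the pool, 8 cells of cluster 9 came from soleus and 1 from gastrocnemius, against 8 and 19 of cluster 2. DESeq2 1.42.0 was an alternative. The scripts were tested on simulated data. Python 3.11.15 with scipy 1.17.1 gave exact intervals and permutation tests. The genes named were the 7 markers, the 10 highest and lowest passing genes against all other fibroblasts and against cluster 2 that agreed in every strain, and members of gene lists that passed or were most abundant. The soleus reading was added after the data were seen. Members, markers and gene lists were chosen with earlier results of these data known. Some results are not reported here.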

Additional observations from a re-analysis of the deposited data

Results flagged for a closer look

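4 values were flagged. Among the 4 strains of cluster 9, *Ltbp2* at 660.1 CPM in Acta2GFP and *Atp8a2* (15.6% exonic overlap) at 66.47 CPM in the pool lay farther from the other strains than Dixon's 95% limit allows, as did the share of cluster 9 among fibroblasts, 22.77% in Acta2GFP. Chance alone passes that limit in about 1 of 20 groups, and many genes were read. The strain, the reporter sort and the elastase step of Acta2GFP cannot be told apart. In the Cspg4dsRED cells, which were left out of the 4 strain sums and entered an alternative fit, *Thbs4* stood at 13510 CPM in the first cell. No outlier test was made of this value, which is of a single cell and not a sum. Another single cell of cluster 9, from gastrocnemius of PdgfrbGFP, held 15690 CPM.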

How the results depend on the processing

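The share of tested genes that passed depended on the fit. Against all other fibroblasts it was 3.71% with edgeR, 16.6% with DESeq2, 1.48% with equal numbers of cells and 1.89 to 2.78% with 1 strain left out. Against cluster 2 it was 1.48%, then 9.61%, 0.298% and 0.578 to 0.783% under the same settings, 1.08% with plate as the unit and 0.994% with Cspg4dsRED included. Against non-perimysial fibroblasts it was 6.87%, then 16.7%, 2.15% and 3.2 to 4.33%, and for cluster 2 against those cells 4.99%, then 11.1%, 1.66% and 2.16 to 2.62%. Each strain left out lowered the count in all 4 comparisons. Without the strain block, 7.96% passed against all other fibroblasts and 2.04% against cluster 2. The block pairs sums of 1 strain, and it moved the count of genes by over 1.5 times in the first comparison alone among the 4. Other size factors, no filter on low counts and equal weights of cells left each count within 1.5 times. The share of higher calls against all other fibroblasts, 45.2%, came to 29.9% with DESeq2, 34.4% without the block, 32.3% by plate, 33.5% with equal numbers of cells and 20.2% with Cspg4dsRED included, and that against cluster 2, 37.6%, to 27.2% by plate and 27.5% without Acta2GFP. Within soleus alone, of 78 named and listed genes that passed against cluster 2, 9 reversed and 6 moved by less than their standard error. The other 63 moved by more without reversing. Among them, *Faim2*, *Galr1* and *Arhgef19* came to 0, with no soleus counts in either cluster. *Pi16* against all other fibroblasts came to 0.01 with equal numbers of cells, and within soleus, against cluster 2, *Adamts2* came to 1.47, *Bmp3* to 0.60, *Fgf9* to 0.33, *Inhbb* to 0.33, *Kera* to 2.47, *Ltbp2* to −0.13, *Mbp* to 0.48, *Sema3a* to 3.0 and *Tgfbr3* to 0.17. The share of cluster 9 cells with a marker, averaged over markers and strains, was 46.78% at 100 counts per 500000 (44.77 to 48.82% with 1 strain left out), 58.35% at 20, 66.57% at 1 count or more and 62.55% at 1 or more of 50000 counts. As a share of perimysial cells, cluster 9 was 50% and 5.0% in soleus and gastrocnemius of the pool and 56.25% and 5.263% in PdgfrbGFP. As a share of fibroblasts it was 22.77% in Acta2GFP, 3.297% in C57BL6, 2.244% in the pool and 2.192% in PdgfrbGFP. The spike-in difference from cluster 2 was −0.4827 points with means and −0.4074 to −0.2528 with 1 strain left out, and that from non-perimysial fibroblasts −0.1494 and −0.1459 to 0.005533. The lead of cluster 2 in likeness was 0.064, then 0.206 over 2000 variable genes and 0.009 with equal cells. Causes were not tested. Of the named and listed genes that passed, 37 against all other fibroblasts and 14 of 78 against cluster 2 did so under every alternative fit, the reading within soleus aside.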
